A study of Homo sapiens with 12 samples.

Results

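This account concerns 9 genes that mark the identity of kidney tubule cells or act in them: KL (klotho), the transcription factors PAX2, PAX8 and LHX1, the cadherins CDH16 and CDH6, the membrane peptidases MME and ANPEP, and the phosphate transporter SLC34A2. They were chosen by symbol, with earlier results of these data known. Each is represented by the probe set with the highest mean over all arrays. They are 9 of the 11963 genes measured, and 22 of the 19064 probe sets that name 1 gene belong to them. PAX8 has 8 probe sets, CDH6 has 5, PAX2 and MME have 2 each, and the others have 1.

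The samples were RCC4 cells, an established line from a clear cell renal carcinoma without functional VHL. All 4 groups derive from that line and carry either an empty vector (Vec) or reintroduced VHL (VHL). Each was kept for 6 h either in full DMEM with 10% FBS, the control medium, or in cystine-deprived DMEM with 10% dialysed FBS; penicillin and streptomycin were present in both. Each group has 3 arrays, called biological replicates in the labels without stating that they came from separate cultures, so the p-values measure only the spread between these samples. Whether either line is 1 clone or a pool is not given, so VHL status cannot be told apart from any other difference between the 2 lines. The labels mention dialysis of the serum for the deprived medium alone, so cystine loss and the change of serum cannot be told apart either.

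The deposited values are log2 expression values, called levels here. Array medians ran from 7.12 to 7.18, lower quartiles from 5.53 to 5.63 and upper quartiles from 9.15 to 9.18. Of 7 genes read as a check of VHL and HIF, 6 were lower in VHL cells in both media, among them EGLN3, a HIF target (log2 difference -3.24 ± 0.06 in control medium). The seventh, VHL itself, had group means of 5.85 to 5.99, between the lower quartile and the median, and was not called: VHL minus Vec was 0.14 ± 0.05 with full medium (limma adjusted p = 0.0532) and -0.05 ± 0.05 without cystine (limma adjusted p = 0.475). Which part of the transcript its probe set reads is not given, so it does not check the reintroduction. The 5 genes used to check cystine loss all rose in both lines, including CHAC1 (2.68 ± 0.10 in Vec and 2.52 ± 0.10 in VHL cells). Of 8 epithelial and carcinoma markers, 6 had means above the upper quartile (KRT8, KRT18, KRT19, EPCAM, VIM and CDH2), KRT7 lay between the median and the upper quartile, and CDH1 at or below the lower one. In control medium 3 of them were lower in VHL cells, KRT19 by 1.36 ± 0.06, KRT8 by 0.61 ± 0.05 and VIM by 0.20 ± 0.04, and KRT7 was higher by 0.48 ± 0.07 (limma adjusted p from 1.36e-09 to 0.00110).

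The tubule is built from the embryonic nephron under PAX2, PAX8 and LHX1, and PAX2 and PAX8 often stay on in renal carcinoma, where they serve as diagnostic markers. Klotho is the co-receptor that lets FGF receptors respond to the hormone FGF23, which lowers phosphate uptake, and in the kidney it is made mainly in the distal tubule. MME and ANPEP sit on the brush border of the proximal tubule, where they trim peptides. VHL picks out the alpha subunits of HIF, the hypoxia-inducible factors, for ubiquitin tagging and destruction.

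In each comparison a gene is called when the adjusted p of limma's moderated test, by the Benjamini-Hochberg method over all 11963 genes, is under 0.05. Between VHL and Vec cells the background is high: 46.1% of all genes were called in control medium and 47.2% in deprived medium. Of the 9 members, 4 were called in control medium, all higher in VHL cells (23.1% of all genes were called higher), and 7 were called in deprived medium, 5 higher and 2 lower (24.2% and 23% of all genes). The Vec and VHL groups did not overlap for 6 members in control medium (53.2% of all genes) and for 7 in deprived medium (54.2%). The members' median log2 difference was 0.10 in control medium and 0.30 in deprived medium, beside -0.0008 and 0.0035 over all genes. That median is the PAX2 value in both media. The share of members called in control medium is near the background. The members were chosen with earlier results of these data known, so the counts and medians in either medium are no result about them as a group.

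**Figure D1:**
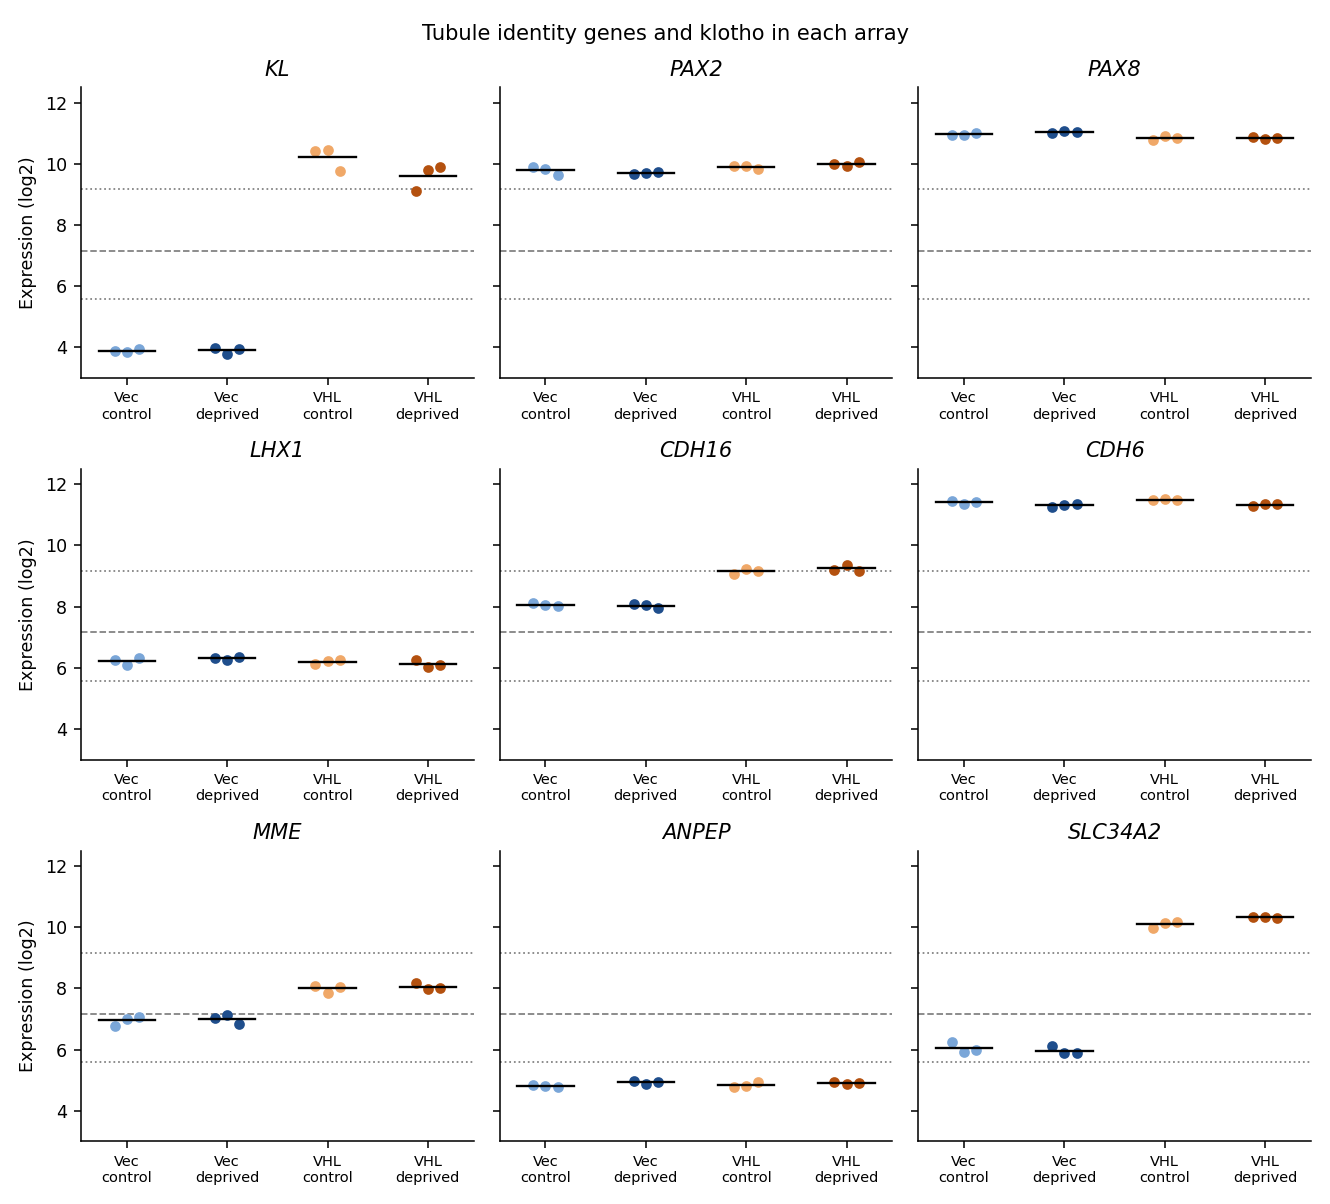
Level (log2) of each of the 9 genes on each of the 12 arrays, with 1 panel per gene, points for arrays, short bars for group means, dotted lines at the lower and upper array quartiles and a dashed line at the array median. KL and SLC34A2 are far higher in VHL than in Vec cells, CDH16 and MME are moderately higher, and PAX2, PAX8, LHX1, CDH6 and ANPEP lie close together across the groups.

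KL, on chromosome 13 (chr13:33016243-33066143, GRCh38.p14), showed the largest rise of all 11963 genes between the lines in both media. Its levels were 3.86, 3.83 and 3.94 in Vec control, 3.97, 3.79 and 3.93 in Vec deprived, 10.40, 10.46 and 9.76 in VHL control, and 9.10, 9.80 and 9.90 in VHL deprived cells. On all 6 Vec arrays it lay below the lower quartile, with 0.963% to 2.14% of probe sets below it. On VHL arrays 74.3% to 88.1% of probe sets lay below KL, and 5 of 6 were above the upper quartile. The Vec and VHL groups did not overlap.

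The log2 difference in KL between VHL and Vec cells was 6.33 ± 0.20 in control medium (limma adjusted p = 3.08e-11, n = 3 per group), an 80.4-fold difference with an interval of 5.90 to 6.75 on the log2 scale. In deprived medium it was 5.71 ± 0.20 (limma adjusted p = 8.77e-11, 52.2-fold). The Vec values are so dim that background signal may set them, and detection calls were not used, so the folds are limited by it. KL ranked 1 among the rises in both media under every alternative computed. It has 1 probe set, so the alternatives that choose among or average probe sets could not change its own difference. It passed the filter on dim genes only through its VHL arrays. The genes next in size, chosen after their values were seen, were VAMP8, a SNARE protein of secretory vesicles (5.36), and ANXA3, an annexin (5.20), both in control medium.

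**Figure D2:**
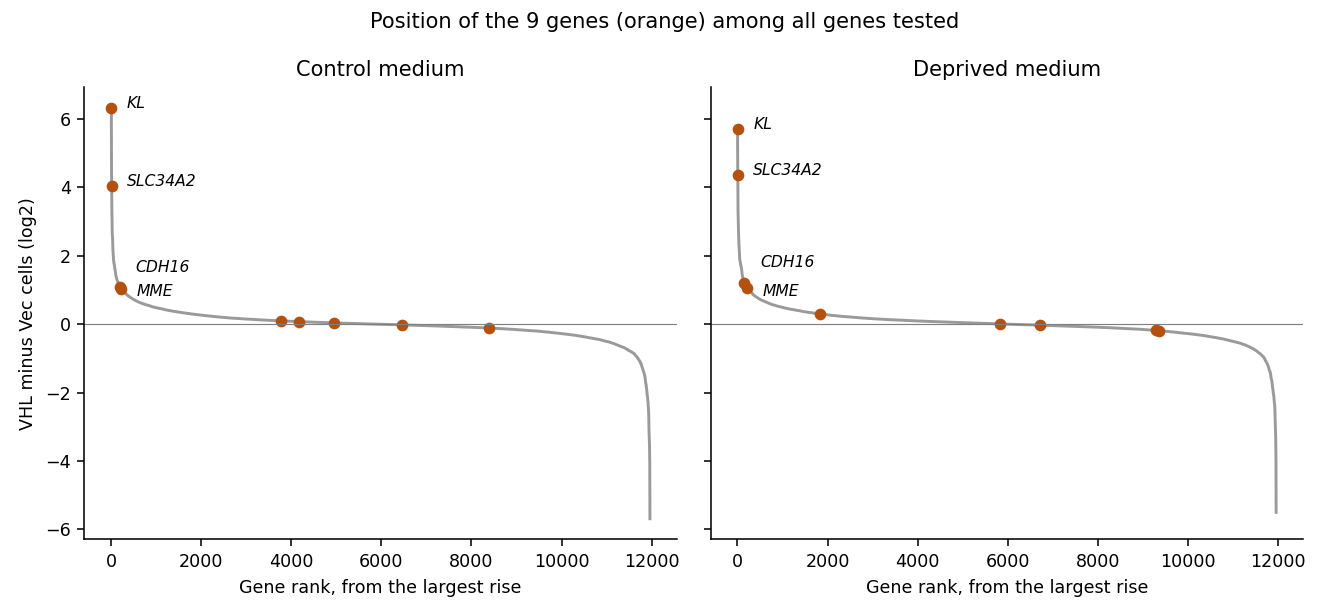
Log2 difference between VHL and Vec cells (vertical axis) against the rank of the difference (horizontal axis, largest rise first) for all 11963 genes, in control medium on the left and deprived medium on the right, with the 9 members as orange points. KL is the first gene in both panels, SLC34A2 stands at 4.04 and 4.36, CDH16 and MME lie just above 1, and the other 5 fall on the flat part near 0.

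SLC34A2 (chr4:25655851-25678748), a sodium-phosphate cotransporter known best from lung and intestine, also rose strongly. Its levels were 6.25, 5.93 and 6.00 in Vec control, 6.13, 5.87 and 5.90 in Vec deprived, 9.98, 10.15 and 10.17 in VHL control, and 10.34, 10.34 and 10.31 in VHL deprived cells. All Vec arrays lay between the lower quartile and the median, and all VHL arrays above the upper quartile. The log2 difference was 4.04 ± 0.09 in control medium (limma adjusted p = 8.88e-13, 16.4-fold) and 4.36 ± 0.09 in deprived medium (limma adjusted p = 4.51e-13, 20.6-fold). It ranked 9 and 6 of 11963 among the rises.

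KL and SLC34A2 were picked after their values were seen. The bases before their annotated starts were searched on both strands for the HIF core motif, ACGTG or GCGTG. Both genes were higher in VHL cells, where 6 of the 7 VHL and HIF check genes were lower. A part of HIF in their line differences was not tested. Shown first, from RefSeq and GRCh38.p14, plus strand, are the 70 bases before the KL gene (chr13:33016173-33016242) and then the 250 bases before the SLC34A2 gene (chr4:25655601-25655850), with matches in capitals.
KL: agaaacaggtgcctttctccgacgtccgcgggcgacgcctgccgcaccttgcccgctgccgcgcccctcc
SLC34A2: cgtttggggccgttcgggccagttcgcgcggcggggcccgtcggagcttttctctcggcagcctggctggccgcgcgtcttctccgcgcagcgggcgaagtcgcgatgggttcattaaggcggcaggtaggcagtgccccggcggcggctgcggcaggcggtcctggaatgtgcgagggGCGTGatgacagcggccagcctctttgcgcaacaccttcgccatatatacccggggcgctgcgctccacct
The KL stretch, 72.9% G or C, has no match, nor has the whole 250-base KL window, of which the other 180 bases lie inside the annotated gene. The SLC34A2 stretch, 69.6% G or C, holds GCGTG once. A second SLC34A2 window, inside the gene (chr4:25656214-25656463), holds ACGTG on both strands in overlapping positions. Of 35116 RefSeq windows of 250 bases, 18.5% hold ACGTG, 32.2% hold GCGTG and 43.2% hold either, so a match is common, and these letters alone show no binding. Among the members that changed less, 1 of 2 PAX2 windows and 1 of 4 MME windows hold both motifs, 1 of 2 ANPEP windows holds GCGTG, and the PAX8 window holds neither. No window was available for CDH16, CDH6 and LHX1, so they were not searched.

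Of the cadherins, which join neighbouring cells, CDH16 was called between the lines in both media and CDH6 in neither. CDH16 (chr16:66908122-66918885), the kidney-specific cadherin, had levels of 8.13, 8.05 and 8.02 in Vec control, 8.08, 8.05 and 7.95 in Vec deprived, 9.06, 9.22 and 9.18 in VHL control, and 9.21, 9.36 and 9.17 in VHL deprived cells. The lowest VHL array exceeded the highest Vec array. CDH16 was 2.12-fold higher in VHL cells in control medium (log2 1.09 ± 0.06, limma adjusted p = 1.24e-08) and 2.33-fold higher in deprived medium (1.22 ± 0.06, limma adjusted p = 3.79e-09).

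CDH6 (chr5:31193686-31329146), a cadherin of the developing tubule, lay above the upper quartile on all 12 arrays, with 93.3% to 94.5% of probe sets below it. Its group means were 11.41 ± 0.04, 11.32 ± 0.06, 11.49 ± 0.03 and 11.33 ± 0.04 (SD, n = 3) in Vec control, Vec deprived, VHL control and VHL deprived cells. The difference between the lines was 0.08 ± 0.05 (limma adjusted p = 0.216) in control medium. In deprived medium it was 0.01 ± 0.05 (limma adjusted p = 0.886). Its other probe sets did not all go the same way. In control medium 3 of 5 were higher and 2 lower in VHL cells, and 1 of the lower ones, at -0.41 ± 0.07, was called over the probe sets (limma adjusted p = 1.87e-04), as it was at -0.33 in deprived medium.

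Of the peptidases, MME was called in both media and ANPEP in neither. MME (chr3:155024202-155183729), neprilysin, which cleaves peptide hormones, had levels of 6.78, 7.01 and 7.07 in Vec control, 7.03, 7.12 and 6.84 in Vec deprived, 8.08, 7.86 and 8.05 in VHL control, and 8.19, 7.97 and 8.01 in VHL deprived cells. All 6 Vec arrays lay below the array median and all 6 VHL arrays above it. MME was 2.06-fold higher in VHL cells in control medium (log2 1.04 ± 0.10, limma adjusted p = 9.11e-07) and 2.08-fold higher in deprived medium (1.06 ± 0.10, limma adjusted p = 8.20e-07), and both of its probe sets rose. ANPEP (chr15:89784895-89814852), aminopeptidase N, was below the lower quartile on all 12 arrays, between 4.78 and 4.96. The difference between the lines was 0.04 ± 0.05 (limma adjusted p = 0.584) in control medium and -0.03 ± 0.05 (limma adjusted p = 0.678) without cystine.

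The transcription factors changed far less than KL. PAX2 (chr10:100735396-100829944) lay above the upper quartile on all arrays, with levels of 9.90, 9.83 and 9.63 in Vec control, 9.65, 9.71 and 9.72 in Vec deprived, 9.91, 9.92 and 9.82 in VHL control, and 9.99, 9.93 and 10.06 in VHL deprived cells. The deprived groups did not overlap while the control groups did. VHL cells were 1.23-fold higher in deprived medium (log2 0.30 ± 0.07, limma adjusted p = 0.00212), but the difference of 0.10 ± 0.07 in control medium was not called (limma adjusted p = 0.270). The second PAX2 probe set, at 0.03 and 0.09, was not called in either medium.

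PAX8 (chr2:113215997-113278921), which helps specify the nephron and also the thyroid, lay above the upper quartile on all arrays, with 90.4% to 92.1% of probe sets below it. Its levels were 10.94, 10.93 and 11.01 in Vec control, 10.99, 11.07 and 11.05 in Vec deprived, 10.78, 10.92 and 10.85 in VHL control, and 10.89, 10.82 and 10.85 in VHL deprived cells. VHL cells were lower by a narrow margin with no overlap in either medium. The log2 difference was -0.18 ± 0.05 in deprived medium (limma adjusted p = 0.00806) and -0.11 ± 0.05 in control medium (limma adjusted p = 0.0871, not called). All 8 PAX8 probe sets were lower in VHL cells in both media, with 5 of them called in control medium and 3 in deprived medium over the probe sets. They target the same gene and are not independent.

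**Figure D3:**
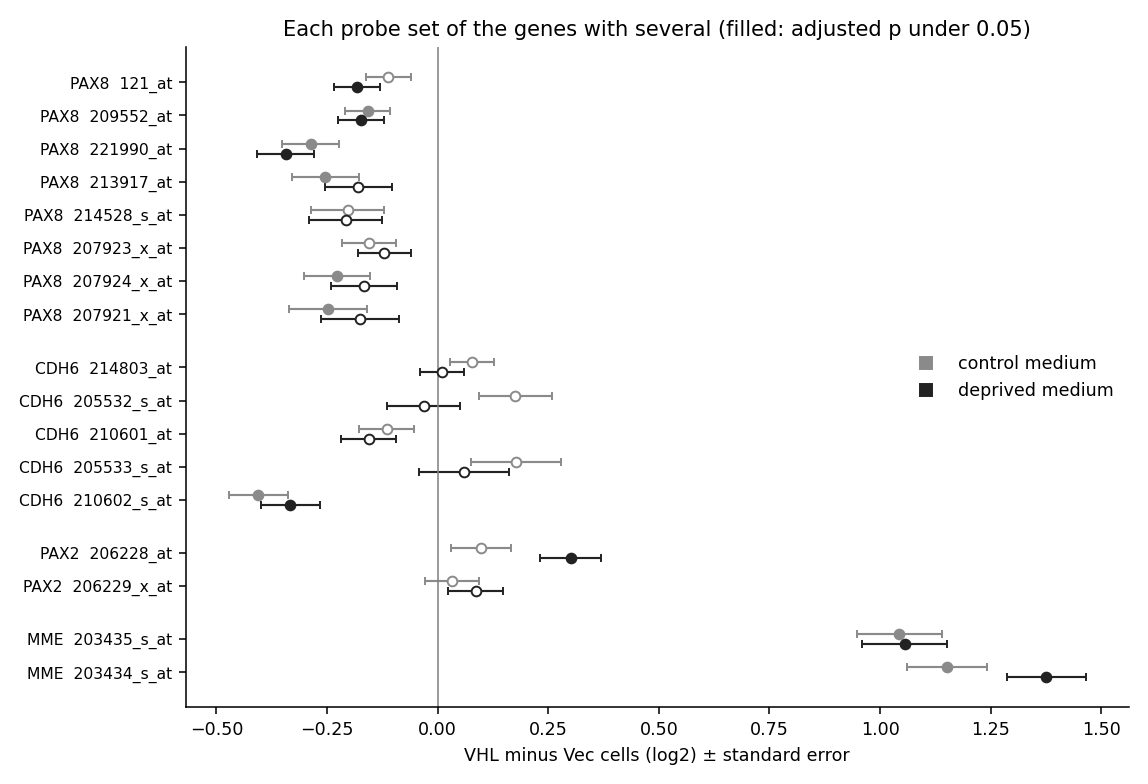
Log2 difference between VHL and Vec cells (± standard error of the fit) for each probe set of the 4 genes with several, grey in control medium and black in deprived medium, filled where called. All 8 PAX8 probe sets lie left of 0, the CDH6 probe sets fall on both sides, and both MME probe sets lie above 1.

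LHX1 (chr17:36936785-36944612), a LIM homeobox factor of the early nephron, lay between the lower quartile and the median on every array. Its levels in deprived medium were 6.31, 6.27 and 6.36 in Vec and 6.26, 6.03 and 6.08 in VHL cells, with no overlap. It was lower in VHL cells there by a small amount (log2 -0.19 ± 0.07, limma adjusted p = 0.0461), while the control difference was -0.02 ± 0.07 (limma adjusted p = 0.871). The call was lost on leaving out any of the 3 Vec deprived arrays or VHL deprived replicate 2 or 3, with adjusted p between 0.0603 and 0.171.

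Removal of cystine moved the members little in Vec cells. With 4.18% of all genes called, limma called 0 of 9 members, and 1, ANPEP, had an unadjusted p under 0.05. The groups did not overlap for 2 of them, ANPEP and CDH6 (22.7% of all genes). Their differences ran from -0.10 to 0.12, with limma adjusted p from 0.249 to 0.980. In VHL cells 11.6% of all genes were called, 737 higher and 655 lower, a split that became 550 and 873 after median centring of each array. Of the 9 members, 1 was called, CDH6, which fell by 0.16 ± 0.05 on the log2 scale (limma adjusted p = 0.0433), where 5.48% of all genes were called lower. The groups did not overlap for 3 members (30.6% of all genes). The CDH6 levels were 11.47, 11.53 and 11.47 before and 11.28, 11.36 and 11.34 after deprivation. The groups did not overlap, and all 5 CDH6 probe sets were lower, but leaving out any 1 of the 6 VHL arrays gave an adjusted p between 0.0621 and 0.142.

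KL in VHL cells was lower after deprivation by 0.61 ± 0.20 on the log2 scale (interval -1.03 to -0.18), without being called (limma adjusted p = 0.0654). The fit pools the spread of all 4 groups. The SD of KL was 0.06 and 0.09 in Vec control and deprived cells, and 0.39 and 0.43 in VHL control and deprived cells. The standard error and interval are therefore too narrow for this comparison within VHL cells. The VHL control and deprived groups overlapped, because VHL control replicate 3 lay below VHL deprived replicates 2 and 3. Without VHL control replicate 3 the difference was -0.83 (limma adjusted p = 0.0125), without VHL deprived replicate 3 it was -0.76 (limma adjusted p = 0.0440), and without VHL deprived replicate 1 it was -0.36 (limma adjusted p = 0.212). SLC34A2 was 0.23 ± 0.09 higher after deprivation in VHL cells with no overlap, and was not called (limma adjusted p = 0.107).

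**Figure D4:**
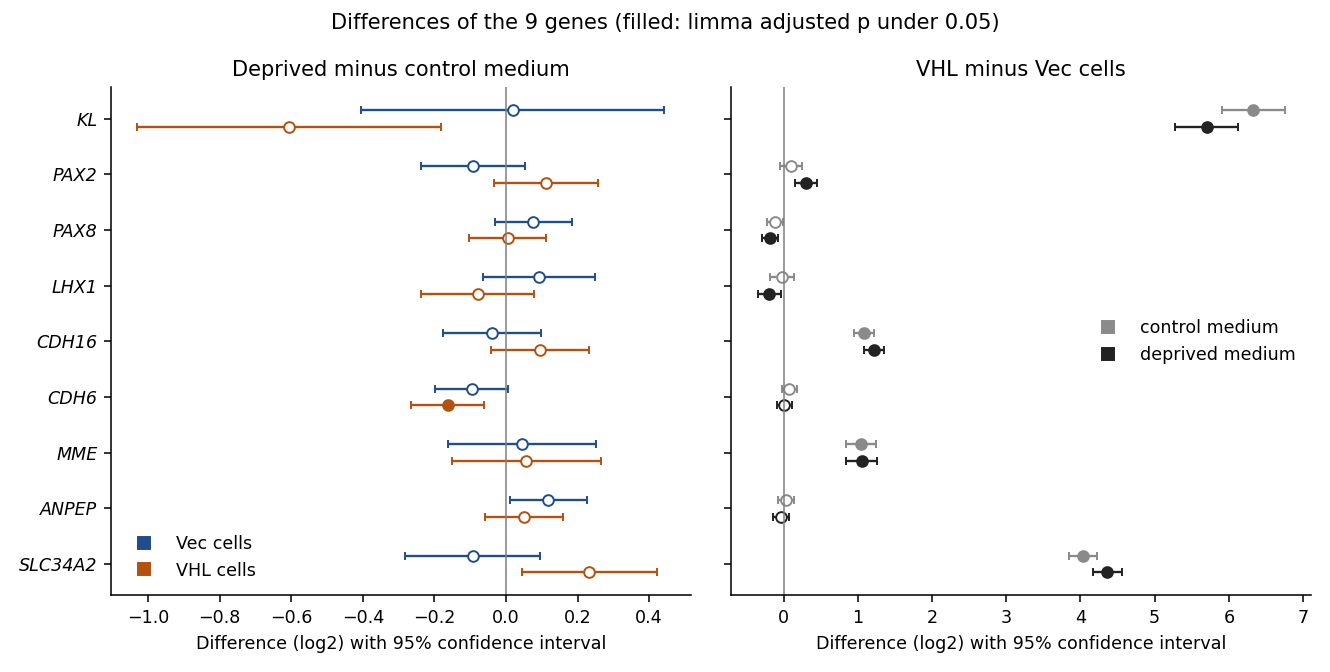
Log2 differences of the 9 genes with 95% confidence intervals, on the left deprived minus control medium in Vec (blue) and VHL (orange) cells, on the right VHL minus Vec cells in control (grey) and deprived (black) medium, filled where called. On the left the call is CDH6 in VHL cells, and KL in VHL cells lies farthest from 0. On the right KL and SLC34A2 exceed 4 while CDH16 and MME are near 1.

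The difference between the deprivation responses, VHL minus Vec, was called for 0.134% of all genes and for 0 of 9 members by limma, of which 2, KL and SLC34A2, had an unadjusted p under 0.05. It was -0.62 ± 0.28 for KL (interval -1.22 to -0.02, limma adjusted p = 0.485) and 0.33 ± 0.12 for SLC34A2 (interval 0.06 to 0.59, limma adjusted p = 0.416). No difference between the members' responses in the 2 lines was shown. For KL the test says little, because its Vec levels were near the bottom of the array and could hardly show a fall.

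Other genes of the same pathways were taken from lists, also chosen with earlier results of these data known. Beside each count stand the shares over all genes, 23.1% higher and 23% lower in control medium and 24.2% and 23% in deprived medium. On the klotho, FGF23 and phosphate list 18 genes were measured. In VHL cells 5 rose and 4 fell in control medium, and 5 rose and 3 fell in deprived medium, near those shares. In control medium FGFR2, an FGF receptor, rose by 2.53 ± 0.12 (limma adjusted p = 1.60e-09). FGFR3, another FGF receptor, rose by 1.37 ± 0.08 there (limma adjusted p = 1.84e-08). BACE1, a membrane protease, was lower by 1.65 ± 0.07 (limma adjusted p = 5.08e-10), and the phosphate transporter SLC20A1 was lower by 0.52 ± 0.05 (limma adjusted p = 1.28e-06). The list's median difference was 0.08 in control medium, beside -0.0008 over all genes.

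Of 33 proximal tubule genes, 10 rose and 5 fell in VHL cells in control medium, and 9 rose and 6 fell in deprived medium, so that the share called in control medium was close to the 46.1% of all genes. SLC3A1, part of the cystine and dibasic amino acid transporter, rose by 2.73 ± 0.09 in control medium (limma adjusted p = 7.66e-11). SLC4A4, a bicarbonate transporter, rose by 1.69 ± 0.07 and PDZK1, a scaffold of apical transporters, by 1.51 ± 0.06 (limma adjusted p = 3.96e-10 and 7.36e-10). GATM, which makes a creatine precursor, was lower by 0.97 ± 0.07 (limma adjusted p = 6.55e-08). Of 28 genes of the loop, distal tubule and collecting duct, 3 rose and 3 fell in each medium, a smaller share than the 23.1% and 23% of all genes in control medium. By mean level 15 of the 28 lay at or below the lower quartile and 8 between it and the median. The part of low levels in that share was not tested, so it is no result about the list. In control medium CA2, a carbonic anhydrase, rose by 1.15 ± 0.05 (limma adjusted p = 9.50e-10). FXYD2, a sodium pump regulator, fell by 0.90 ± 0.05 (limma adjusted p = 8.96e-09).

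Of 18 nephron transcription factors, 4 rose and 6 fell in control medium (23.1% and 23% of all genes), and 6 rose and 5 fell in deprived medium (24.2% and 23% of all genes). These counts are no result about the factors as a group. In control medium EMX2, which acts in early kidney formation, was lower in VHL cells by 3.31 ± 0.13 (limma adjusted p = 3.10e-10). WT1, needed for the nephron and kept on in podocytes, was lower by 3.07 ± 0.24 (limma adjusted p = 2.29e-07). Both lay below the lower quartile in VHL control cells, WT1 at a mean of 3.93 and EMX2 at 5.19, so background signal limits the size of these differences. MAF rose by 1.63 ± 0.15 (limma adjusted p = 8.96e-07). Of 14 membrane peptidases, 4 rose and 2 fell in control medium and 3 rose and 3 fell in deprived medium, again beside 23.1% and 23% and then 24.2% and 23% of all genes. ENPEP, aminopeptidase A, was lower by 2.52 ± 0.12 in control medium (limma adjusted p = 2.00e-09), opposite to MME, while DPP4 rose by 0.90 ± 0.09 (limma adjusted p = 3.25e-06). Each of these 5 lists held both risers and fallers.

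**Figure D5:**
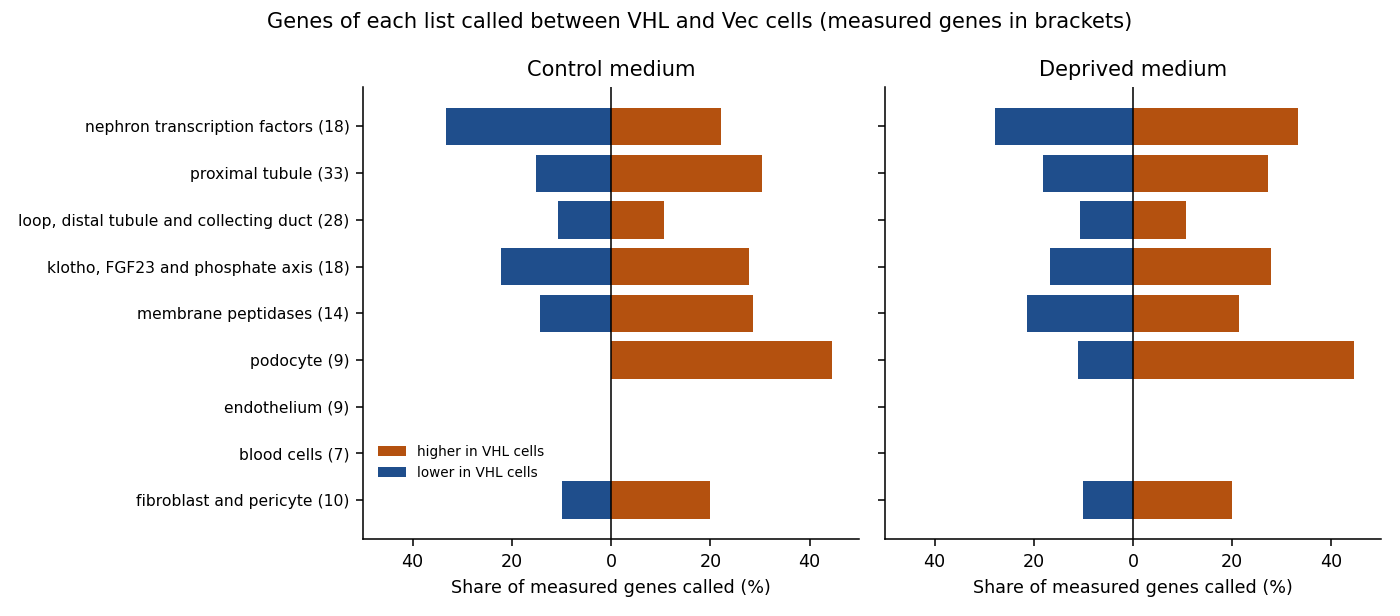
Share of the measured genes of each list (number in brackets) called higher (orange, right) or lower (blue, left) in VHL cells, in control and in deprived medium. Bars to both sides appear for all tubule lists, and none for endothelium or blood cells.

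After cystine removal 0 of 18 nephron factors rose and 2 fell in Vec cells, and 1 rose and 3 fell in VHL cells. Of 33 proximal tubule genes 1 fell in Vec and 2 fell in VHL cells, of 28 later tubule genes 1 fell in Vec and 1 rose and 1 fell in VHL cells, and of 18 klotho axis genes 1 fell in Vec and 1 rose in VHL cells. Over all genes 4.18% were called in Vec and 11.6% in VHL cells. The risers, all in VHL cells, were TFAP2A (0.23 ± 0.04, limma adjusted p = 0.00518), FXYD2 (0.20 ± 0.05, limma adjusted p = 0.0233) and VDR, the vitamin D receptor (0.28 ± 0.08, limma adjusted p = 0.0311). SALL1, a nephron progenitor factor, fell by 0.31 ± 0.06 in Vec and 0.40 ± 0.06 in VHL cells (limma adjusted p = 0.0111 and 8.45e-04), and IRX5 fell by 0.41 ± 0.05 and 0.19 ± 0.05 (limma adjusted p = 4.18e-04 and 0.0298). CA2 fell by 0.30 ± 0.05 and 0.33 ± 0.05 (limma adjusted p = 0.00491 and 0.00118). In VHL cells GATM fell by 0.40 ± 0.07, EMX2 by 0.44 ± 0.13 and SLC22A5, a carnitine transporter, by 0.15 ± 0.04 (limma adjusted p = 0.00239, 0.0454 and 0.0327). EMX2 means there were 5.19 in control and 4.75 in deprived medium, both below the lower quartile, so background signal limits its fall. In Vec cells SLC4A4 fell by 0.32 ± 0.07 and FGFR3 by 0.36 ± 0.08 (limma adjusted p = 0.0204 and 0.0328). No member of the peptidase list was called by limma in either line, with 0 and 1 at an unadjusted p under 0.05.

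Markers of other cell types were read on the same arrays. The 9 endothelial and 7 blood cell markers were all below the array median, and limma called 0 of each between the lines, with 0 endothelial and 0 blood markers in control medium and 1 and 1 in deprived medium at an unadjusted p under 0.05. Of 9 podocyte genes, 4 rose and 0 fell in VHL cells in control medium (23.1% and 23% of all genes), and 4 rose and 1, CD2AP, fell in deprived medium (24.2% and 23%), CD2AP being named after its value was seen. SYNPO rose by 0.68 ± 0.07 in control medium (limma adjusted p = 2.71e-06). WT1, also kept on in podocytes, was counted with the nephron factors and not here. It was lower in VHL cells by 3.07 ± 0.24 in control medium (limma adjusted p = 2.29e-07). The podocyte counts are therefore no result about podocyte genes as a group. Of 10 fibroblast and pericyte markers 2 rose and 1 fell in each medium, and their summed linear signal ran from 1018 to 1070 in Vec and from 4188 to 5078 in VHL cells. In control medium RGS5, a pericyte marker, was higher by 4.43 ± 0.07 and ACTA2, smooth muscle actin, by 1.07 ± 0.06 (limma adjusted p = 6.20e-14 and 4.38e-09), and DCN, decorin, was lower by 0.28 ± 0.08 (limma adjusted p = 0.0104). Without cystine the differences were 4.21, 0.93 and -0.30. The summed linear signal is weighted to the brightest marker, which was RGS5 in VHL cells. It therefore shows no rise of the 10 markers as a set. Their median log2 difference between VHL and Vec cells was 0.09 in control medium and 0.01 in deprived medium. The part of these markers in the differences of KL, SLC34A2, CDH16 and MME was not tested.

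For each member with a mean above the lower quartile, the genes with the most similar pattern over the 12 arrays were named from 9671 genes with a mean above the lower quartile. These are descriptions, since the arrays fall into 2 lines and any gene that differs strongly between them scores high. KL is above that quartile only through its VHL arrays, so its likeness restates the line difference. KL was most like SPA17 (Pearson r = 0.9985) and FUT9, a fucosyltransferase (0.9984). SLC34A2 was most like HSPB2 (0.9992) and RELN (0.9989), and CDH16 most like SLC34A2 itself (0.9958) and NPR3 (0.9953). MME was most like COMMD10 and PRR13 (both 0.988). PAX2 was most like GRB7 (0.948), PAX8 most like B4GALT7 (0.974), LHX1 most like UNC5B (0.919) and CDH6 most like SNRNP40 (0.929).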

How the data were processed

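RNA from 12 samples was measured on single-colour Affymetrix arrays. The deposited values are log2 expression values, 1 for each of 22215 probe sets and array; their normalization is not given in the sources used here, and array quartiles lie close together. They were used without further scaling. Per the platform annotation 19064 probe sets name 1 gene, 1043 several and 2108 none, and those naming several or none were left out; symbols were updated through RefSeq (GRCh38.p14) for 19052. Detection calls were not used.

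With limma 3.58.1 in R 4.3.3 group means were estimated from the 12 arrays together (lmFit and eBayes, 8 residual degrees of freedom, two-sided) and adjusted by Benjamini-Hochberg over 11963 genes. Values after ± are the fit's standard errors, or SDs where so marked, and intervals have 95% confidence; the number of arrays limits the precision. Comparisons of medium and of line share arrays with each other; the 2 comparisons of medium share none, nor do the 2 of line. The members and gene lists were chosen with earlier results of these data known. Members were all named; from each list up to 4 called genes by smallest adjusted p per comparison, or 2 of highest mean where none was called. Scripts were tested on simulated data. Alternatives were quantile normalization, median centring, leaving out dim genes (mean at or under 5.58), averaging over a gene's probe sets, testing each probe set alone, leaving out probe sets ending in _x_at or _s_at, trend and robust moderation, only the groups compared, a replicate block, and leaving out each array.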

Additional observations from a re-analysis of the deposited data

Results flagged for a closer look

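DDIT4, a stress-induced brake on mTORC1 used here only to check the response to cystine loss, was flagged because its deprivation responses differed between the lines by the interaction test. It rose by 1.25 ± 0.05 in Vec and by 2.26 ± 0.05 in VHL cells on the log2 scale, a difference of 1.008 (limma adjusted p = 1.31e-05, 3 arrays per group). Its control and deprived means were 11.45 and 12.70 in Vec and 8.51 and 10.77 in VHL cells. DDIT4 thus started lower in VHL cells and stayed lower there after deprivation. No member had such a difference past the threshold.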

How the results depend on the processing

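The higher levels of KL, SLC34A2 and CDH16 in VHL cells were called in both media under every alternative run. Each of these 3 has 1 probe set, so choices among probe sets could not change their differences. The higher level of MME was called likewise (not measured without _s_at probe sets). In deprived medium the higher PAX2 and the lower PAX8 in VHL cells were called under every alternative too. PAX8 in control medium was called in 3 of 15 alternatives, LHX1 in deprived medium in 7 of 15. The call for CDH6 after deprivation in VHL cells held in 4 of 15, and in 0 of the 6 that left out 1 array. The members called there were 0 after averaging probe sets, without _x_at and _s_at probe sets, with only the groups compared and with the replicate block. On leaving out 1 array they were 0 to 1, the 1 being KL, which was called in 2 of these 6. Small uncalled differences changed sign, and the cause was not tested. They were the MME interaction at -0.002 after quantile normalization and -0.013 after median centring, and with median centring PAX8 after deprivation in VHL cells at -0.024 and LHX1 between the lines in control medium at 0.007. With averaged probe sets PAX8 was -0.048 in Vec and -0.035 in VHL cells after deprivation with an interaction of 0.012, MME was -0.029 after deprivation in Vec cells, and CDH6 between the lines was -0.018 in control and -0.09 in deprived medium. On leaving out 1 array the deprivation differences ran from -0.018 to 0.07 (KL) and -0.043 to 0.124 (MME) in Vec cells, and from -0.03 to 0.04 (PAX8) and -0.013 to 0.101 (MME) in VHL cells. The MME interaction ran from -0.067 to 0.1, and the line differences from -0.087 to 0.034 (LHX1, control), -0.01 to 0.07 (ANPEP, control) and -0.019 to 0.037 (CDH6, deprived). Of 705 member values under alternatives 653 kept direction and side of the threshold, most of them uncalled in the main fit as well. Of the rest, 19 lost a call, 5 gained one and 28 changed sign.

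Over all genes, 500 and 1392 were called after deprivation in Vec and VHL cells. Leaving out 1 array gave 253 to 303 and 764 to 1302, fitting only the groups compared gave 311 and 835, and dropping _x_at and _s_at probe sets, which leaves fewer genes to test, gave 233 and 771. That last choice gave 3427 and 3505 between the lines in control and deprived medium, and trend and robust moderation gave 45 interactions in place of 16. Replicate numbers are shared between groups, but residuals of same-numbered arrays correlated only between -0.268 and 0.235 (median 0.0526). Those of arrays with other numbers, also from different groups, correlated between -0.350 and 0.291 (median -0.0179). The ranges overlap, so the samples were not treated as paired. With the replicate block the adjusted p of CDH6 was 0.0585, 5 of 12 arrays were closest to one of their own number, and no other member's call changed. Detection calls were not used, so low levels such as KL in Vec cells and ANPEP have no measured floor.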
